A study of Mus musculus with 22 samples.

Results

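The proteasome subunits are described here in the spinal cord of aging mice and of SOD1G93A mice. They were taken as the protein-coding genes whose mouse symbol starts with Psma, Psmb, Psmc or Psmd followed by a digit, without the 3 inducible subunits Psmb8, Psmb9 and Psmb10. This rule used names and no measured value, and it found 37 of the 21995 genes in the deposited table. They comprise 8 genes of the alpha ring, 8 of the beta ring, 6 ATPases and 11 non-ATPase subunits of the regulatory particle, and 3 chaperones that assemble its base (Psmd5, Psmd9 and Psmd10). The remaining gene, Psmc3ip, matches the symbol rule but encodes a factor of meiotic recombination and is no proteasome subunit.

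The proteasome is the protease complex that degrades most short-lived, damaged and misfolded proteins of the cytosol and nucleus, usually after they have been tagged with ubiquitin. Its barrel-shaped core, the 20S particle, is made of outer alpha rings, which gate the entry, and inner beta rings, which hold the proteolytic sites. Its regulatory particle, called 19S, recognizes ubiquitin, removes it, and unfolds the substrate with a ring of ATPases. Neurons are long-lived cells that cannot dilute damaged proteins by dividing, and ubiquitin-positive protein inclusions are a hallmark of amyotrophic lateral sclerosis (ALS).

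Each sample was RNA of a spinal cord of 1 mouse on the C57BL/6 background. The aging comparison set 8 wild-type mice at 18–24 months (Old) against 8 wild-type mice at 3–4 months (Young), all male, with libraries made with the Roche KAPA kit. The ALS comparison set 3 mice of genotype G93a at 5–6 months (SOD1G93A), which carry a mutant human SOD1 transgene, against 3 wild-type mice of the same age (Control), with libraries made with the Illumina TruSeq kit. Both of these groups held 2 female mice and 1 male mouse, and which library came from which sex was not used here. Each mouse gave 1 library, and libraries are named below by their group and the identifier in their column name.

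Total counts ranged from 5078092 to 9358055 in the young and old libraries and from 9675610 to 13219797 in the control and SOD1G93A libraries. At these depths 3 counts corresponded to 0.230 to 0.581 CPM (counts relative to the library size, which was scaled by TMM factors). The old library d149034 stood apart, with a TMM factor of 0.920 against 0.984 to 1.03 in the other old libraries and 15.1% of its counts in its 10 most abundant genes. The row of the mouse gene Sod1 was 296 to 335 CPM in SOD1G93A libraries and 156 to 168 CPM in controls. Among defining markers, 8 neuronal, 6 motor neuron, 6 astrocyte and 6 oligodendrocyte genes were all measured well enough to be tested in both experiments, whereas the summed level of 6 skeletal muscle genes stayed between 0.833 and 5.25 CPM.

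Promoters of 5 genes are shown first, since they belong to the members on which the comparisons turn: the catalytic subunits Psmb5 and Psmb6, of which only Psmb6 was called in old mice, Psmd4, also higher in old mice, and Psmc5 and Psmd12, which were lower in SOD1G93A mice. RefSeq promoter windows on GRCm38.p6, from 250 bases before to 50 bases after the gene start, were found for 30 of the 37 genes. Psma8, Psmb1, Psmb2, Psmb7, Psmc3, Psmd3 and Psmd7 had no entry. The stretches below are the bases before the start, 5′ to 3′ on the gene's strand, without those that GENCODE M21 places inside the gene. They lie at chr14:54618023-54618245 (minus strand), chr11:70525107-70525356 (plus strand), chr3:95042615-95042864 (minus strand), chr11:106255935-106256153 (plus strand) and chr11:107479278-107479483 (plus strand), and capitals mark the motif described after them.
Psmb5: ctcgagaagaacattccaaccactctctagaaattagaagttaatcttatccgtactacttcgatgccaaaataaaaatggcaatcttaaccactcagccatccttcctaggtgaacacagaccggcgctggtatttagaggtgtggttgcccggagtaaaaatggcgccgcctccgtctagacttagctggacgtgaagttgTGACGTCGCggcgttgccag
Psmb6: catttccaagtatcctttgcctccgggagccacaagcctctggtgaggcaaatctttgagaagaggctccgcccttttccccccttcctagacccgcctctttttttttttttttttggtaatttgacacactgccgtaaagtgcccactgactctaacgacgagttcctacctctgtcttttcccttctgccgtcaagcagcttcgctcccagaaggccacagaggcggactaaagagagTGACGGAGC
Psmd4: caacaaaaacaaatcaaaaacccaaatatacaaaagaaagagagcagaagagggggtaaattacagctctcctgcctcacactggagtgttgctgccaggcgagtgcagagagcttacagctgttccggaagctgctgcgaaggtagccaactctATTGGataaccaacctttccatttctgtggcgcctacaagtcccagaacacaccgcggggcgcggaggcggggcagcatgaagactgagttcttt
Psmc5: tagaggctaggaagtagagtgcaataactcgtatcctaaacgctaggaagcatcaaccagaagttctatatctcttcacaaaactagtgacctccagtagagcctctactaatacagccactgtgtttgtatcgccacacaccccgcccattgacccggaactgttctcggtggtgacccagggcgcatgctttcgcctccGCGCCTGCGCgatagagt
Psmd12: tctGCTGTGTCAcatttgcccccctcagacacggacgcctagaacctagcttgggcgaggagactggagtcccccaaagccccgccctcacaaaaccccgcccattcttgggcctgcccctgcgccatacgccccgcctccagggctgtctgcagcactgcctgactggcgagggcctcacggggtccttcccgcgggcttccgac

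A search for 3 motifs covered both strands of the whole windows, and no hits of different motifs overlapped in a member's window. TGACNNNGC is the core of the antioxidant response element, to which the proteasome regulator NFE2L1 and its relative NFE2L2 bind. It was found in 5 of 30 members (16.7%: Psmb5, Psmb6, Psmc6, Psmd9 and Psmd12) and in 14% of all 27025 genes with a window. In the capitals above it begins 47 bases before the start of Psmb5, 9 bases before that of Psmb6 and, on the opposite strand, 247 bases before that of Psmd12. The NF-Y box CCAAT, in capitals for Psmd4 on the opposite strand, was found in 13 of 30 members (43.3%) and in 41.1% of all genes. The site of nuclear respiratory factor 1, GCGCA and GCGC with 1 base between them, is in capitals for Psmc5 on the opposite strand. It was found in 6 of 30 members (Psma2, Psma3, Psma4, Psmc4, Psmc5 and Psmd14; 20%), in 5.19% of all genes and in 7.47% of the genes that the table lists as protein-coding. These matches are descriptions of letters and were not tested.

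Most proteasome genes were measured within the same order of magnitude. Levels between genes are given as FPKM, which scales by transcript length. In young cords the 31 core and regulatory subunits other than Psma8 and Psmb11 ranged from 35.4 FPKM (Psmd11) to 181 FPKM (Psmc5), a 5.12-fold range with a median of 62.6 FPKM. The 3 highest were Psmc5, an ATPase of the ring that unfolds substrates, at 181 ± 16.4 FPKM (SD, n = 8), Psmb4, a non-catalytic beta subunit, at 172 ± 21.3 FPKM, and the ATPase Psmc1 at 118 ± 5.85 FPKM. Psmc5 and Psmb4 did not differ beyond their spread, and neither did Psmc1 and the next in order, Psmc3, at 114 ± 9.79 FPKM. In controls the order began with Psmc5 (169 ± 4.87 FPKM, n = 3), Psmb4 (113 ± 7.79 FPKM) and Psmb1 (103 ± 3.23 FPKM). By role, the young medians were 92.5 FPKM for the ATPases, 88.1 FPKM for the beta ring, 71.7 FPKM for the alpha ring and 55.5 FPKM for the non-ATPases.

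**Figure D1:**
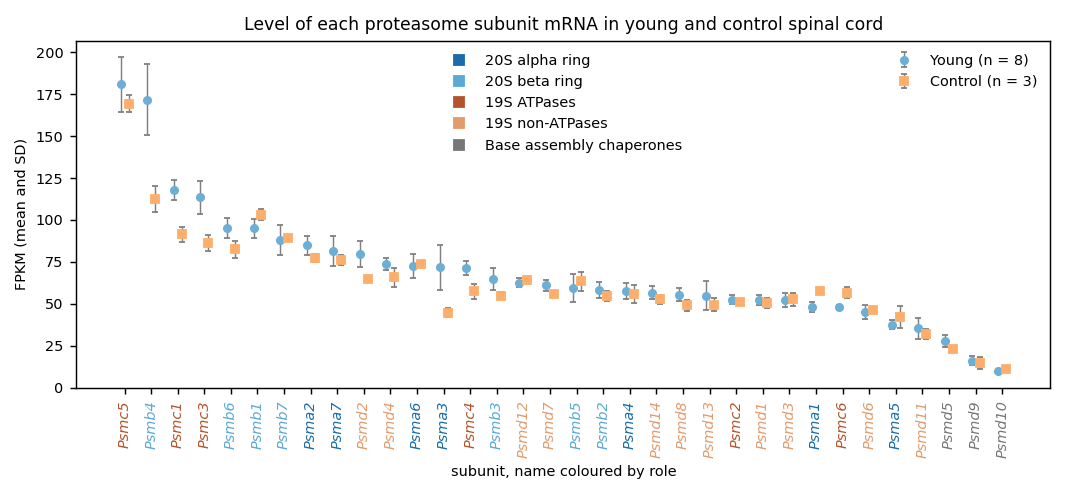
FPKM of each subunit and base chaperone in young (circles, n = 8) and control (squares, n = 3) spinal cord, in order of the young mean, with bars of 1 SD and names coloured by role. Psmc5 and Psmb4 lead in both groups, and the chaperones Psmd5, Psmd9 and Psmd10 are the lowest.

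At the other end, the mean levels of the base chaperones were lower than that of every core or regulatory subunit but Psma8 and Psmb11, at 27.9 FPKM for Psmd5, 16.1 FPKM for Psmd9 and 9.82 FPKM for Psmd10 in young cords. The 3 lowest rows were Psmc3ip at 1.40 ± 0.433 FPKM, Psma8, the alpha subunit of the testis, at 0.153 ± 0.106 FPKM, and Psmb11, the beta subunit of the thymus, at 0.0125 ± 0.0175 FPKM. Psmb11 had at most 1 count in any young, 2 in any old, 5 in any control and 4 in any SOD1G93A library. Psma8 had at most 3 counts in any old library and at most 5 in any library of the other groups. Neither was tested in either comparison, and Psmc3ip was tested in ALS alone, which leaves 34 members tested in aging and 35 in ALS.

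In old spinal cord, 8 subunits rose and none fell, and the largest of these changes was 1.18-fold in Psmb6. Of these, 4 belong to the beta ring: Psmb6, which holds the caspase-like site, and the non-catalytic Psmb1, Psmb2 and Psmb3. The others were the ATPases Psmc3 and Psmc4, the ubiquitin receptor Psmd4, and Psmd8, a subunit of the lid. No subunit of the alpha ring and none of the 3 base chaperones passed the test. The test was edgeR's quasi-likelihood test, adjusted by Benjamini-Hochberg across the 13647 genes that passed the filter, and a gene was called at an adjusted p under 0.05. Of all genes tested, 26.4% were called, 13.5% as higher and 12.9% as lower. Of the 34 members, 8 (23.5%) were higher. At an unadjusted p under 0.05, 10 were higher and 0 lower, and the share of all genes at that threshold was not counted. DESeq2 likewise called 8 higher and 0 lower, beside 1871 higher and 1861 lower of all 13647 genes tested. With the study's added threshold of a log2 fold change beyond 1, which 2.22% of all genes passed, 0 members were called.

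Psmb6 had the smallest adjusted p. Its CPM was 70.8 to 83.1 in the 8 young libraries, with a median of 77.2, and 83.4 to 96.7 in the 8 old libraries, with a median of 91.0. It was the only tested member whose groups did not overlap, a pattern found in 3.66% of all genes with the old libraries higher and in 1.66% with them lower. Its log2 fold change was 0.24 ± 0.046 (SE), with a 95% confidence interval of 0.15 to 0.34 and an adjusted p of 4.00e-04. The other catalytic subunits were not called. Psmb5, with the chymotrypsin-like site, was 46.7 to 66.4 CPM (median 50.9) in young and 40.9 to 68.5 CPM (median 54.4) in old libraries, and 2 old libraries were above and 2 below the whole young range. Its log2 fold change was 0.08, with an interval of -0.12 to 0.28 (adjusted p = 0.606). Psmb7, with the trypsin-like site, was 94.8 to 117 CPM (median 108) in young and 102 to 134 CPM (median 113) in old libraries. Its log2 fold change was 0.11, with an interval of -0.01 to 0.23 (adjusted p = 0.189).

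Psmd4, which captures ubiquitin chains, was 91.9 to 106 CPM (median 96.0) in young and 103 to 120 CPM (median 109) in old libraries. All 8 old libraries were above the young median and 6 of 8 above the young maximum. Its log2 fold change was 0.17 ± 0.042 (SE; adjusted p = 0.00408). Psmd8 was 70.8 to 84.1 CPM (median 78.5) in young and 80.7 to 105 CPM (median 87.0) in old libraries, with 7 of 8 old libraries above the young maximum. It rose by 0.20 ± 0.056 on the log2 scale (adjusted p = 0.00829). Psmb3 was 44.2 to 58.1 CPM (median 51.8) in young and 47.2 to 72.6 CPM (median 57.9) in old libraries, and its groups overlapped widely. Its log2 fold change of 0.22 ± 0.076 (SE) had an adjusted p of 0.0388, which was lost when any of 9 of the 16 libraries was left out.

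**Figure D2:**
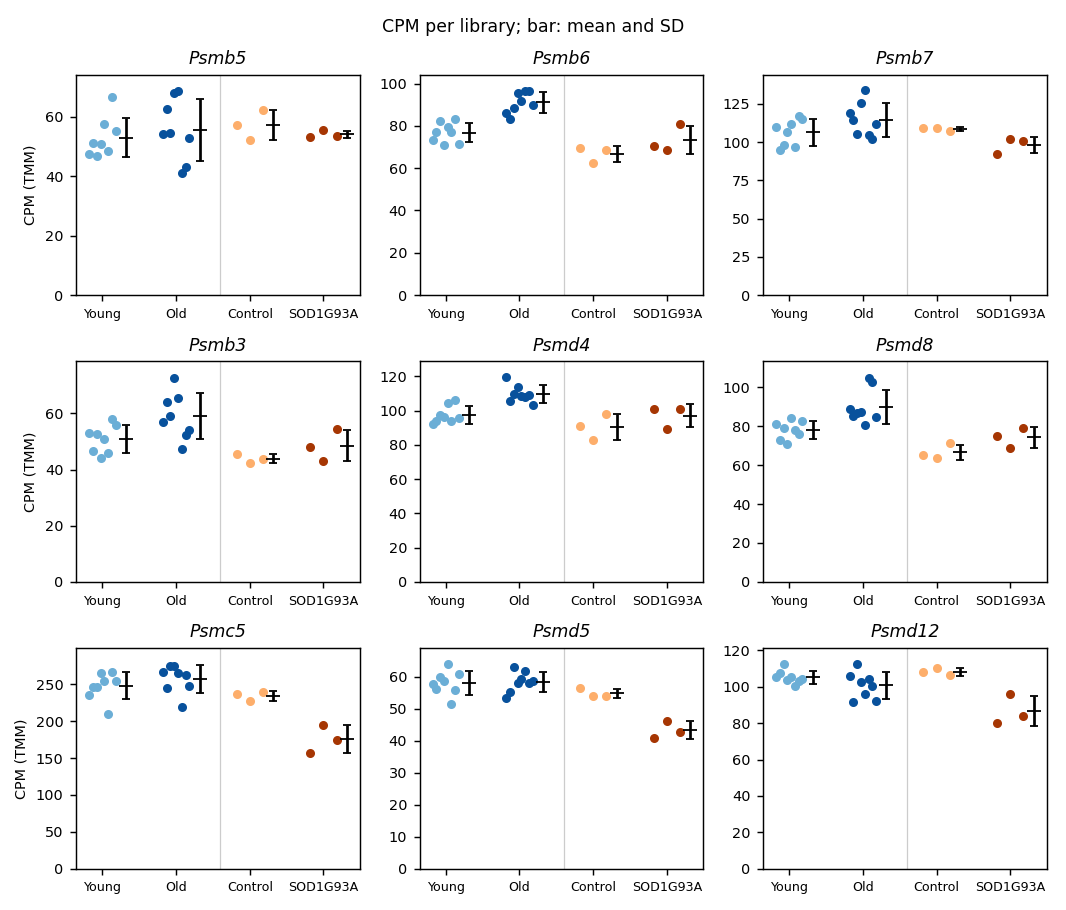
CPM per library of the catalytic subunits and of the subunits and base chaperones with the smallest adjusted p or the largest change in either comparison. Psmc3ip is not shown. The group mean and SD are beside the points, and the CPM axis starts at 0. Psmb6 separates old from young libraries, as do 3.66% of all genes with the old libraries higher. Psmc5, Psmd5 and Psmd12 separate SOD1G93A from control libraries, as do 24.7% of all genes with the SOD1G93A libraries lower.

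The remaining calls were small. Psmb2 rose by 0.18 on the log2 scale (adjusted p = 0.0176), Psmb1 by 0.13 (0.0167), Psmc4 by 0.14 (0.0442) and Psmc3 by 0.12 (0.0233). The call of Psmc4 was lost in 12 of 16 fits that left out 1 library and that of Psmc3 in 3 of 16, whereas Psmb1, Psmb2, Psmb6, Psmd4 and Psmd8 were called in all 16. Across the other alternative fits, the lowest log2 fold changes of these genes were 0.0044, -0.045, 0.029, 0.016 and 0.046, in that order. Under the correction for length and GC content described below, 0 of the 34 members were called higher. Psmc3 shares 8.25% of its exon bases with Slc39a13 on the opposite strand and Psmb7 11.8% with Nek6, and whether reads were counted by strand was not given in the sources used here. All 7 tested beta ring genes and all 6 ATPases had positive log2 fold changes, against 5 of 7 in the alpha ring and 8 of 11 among the non-ATPases. The median log2 fold change was 0.13 in the beta ring, 0.05 in the ATPases, 0.04 in the alpha ring and 0.03 in the non-ATPases. Over all 34 members it was 0.06, beside -0.0027 over all genes tested. Psma3, a subunit of the alpha ring, had the lowest log2 fold change, -0.18, with an interval of -0.40 to 0.03 and the widest spread among young libraries, a coefficient of variation of 18.4% against a median of 6.71% over the members. Its mean FPKM did not fall, at 71.7 in young and 73.8 in old cords.

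As a share of each library, beta ring counts were 0.0494% to 0.0613% of the total in young and 0.0479% to 0.0690% in old libraries. The lowest old value was that of library d149034, which was also the lowest old library for the alpha ring, the ATPases and the non-ATPases. These are shares of raw totals, not scaled by TMM factors, and this library had a TMM factor of 0.920. Without that library 8 members were again called higher, with Psma7 in place of Psmc4. The groups overlapped in all 4 sums, and no test was applied to them. In the same libraries 1 of 8 neuronal markers was higher and 2 were lower, and their sum was 8057 to 9061 CPM in young and 7072 to 9031 CPM in old cords. The astrocyte and microglial sums did not overlap. Of the astrocyte markers 3 of 6 were higher and 1 lower (sum 5631 to 6203 CPM in young, 6535 to 7231 CPM in old cords). Of the microglial markers 7 of 8 were higher and none lower (329 to 364 CPM, 508 to 835 CPM). The sums of motor neuron, oligodendrocyte, endothelial and Schwann cell markers overlapped between young and old cords. The part of cell composition in the subunit values was not tested.

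**Figure D3:**
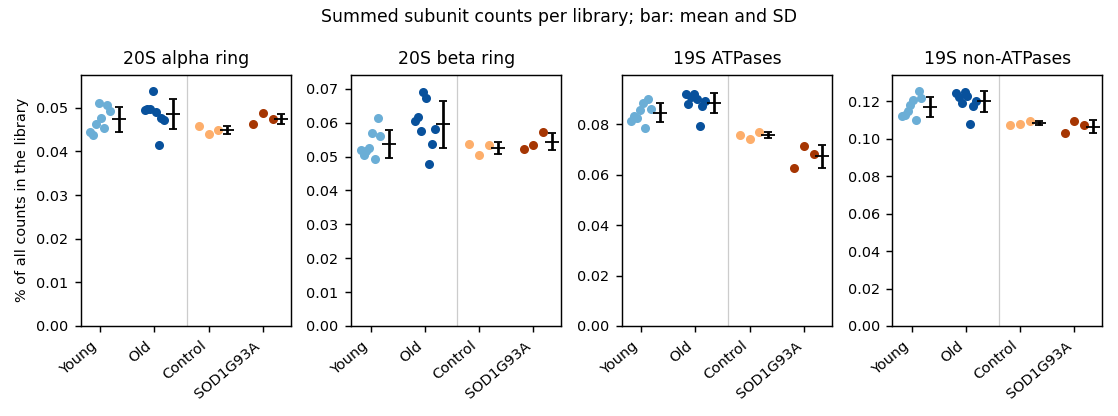
Summed counts of each class of subunit as a percent of all counts in the library, with points for libraries, bars for the group mean and SD, and axes starting at 0. Old and young libraries overlap in every class, and the 19S ATPase sum is lower in all 3 SOD1G93A libraries than in any control.

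Log2 fold changes in aging also varied with transcript length. Proteasome mRNAs are short: 22 of the 34 members fell in the shortest of 5 equal bins of the genes tested, with transcripts of up to 2093 bases. In that bin the median gene rose by 0.11 on the log2 scale and 23.4% of genes were called higher, while in the longest bin the median was -0.13 and 5.47% were called higher. Of the 22 members in the shortest bin, 7 were called higher and their median was 0.10. Each library was also corrected for length and GC content by a robust fit, centred on the library's median (an alternative chosen after seeing the data). With this centred correction 0 of the 34 members were higher and 1, Psmd12, was lower. Under that correction 12.5% of all genes were called higher and 7.01% lower. Whether the length trend arises in the cords or in the libraries was not tested.

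**Figure D4:**
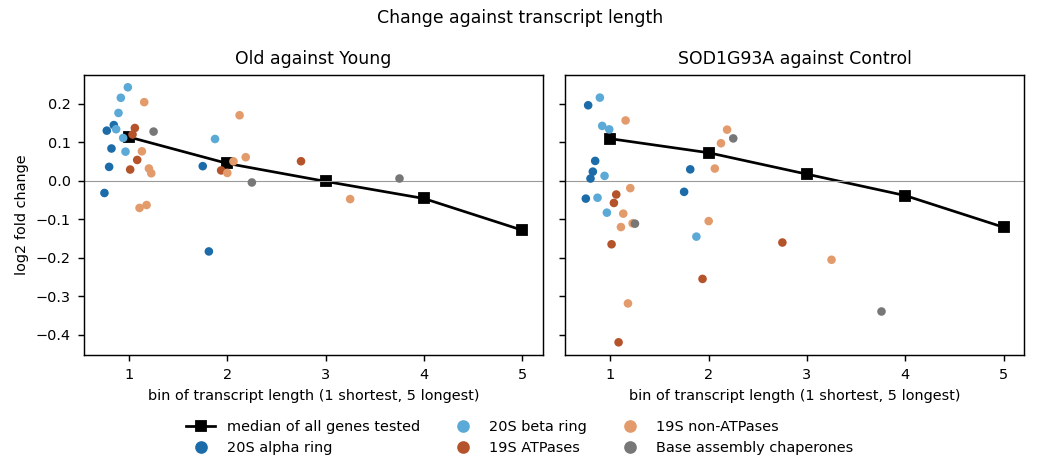
Log2 fold change of the tested subunits and base chaperones (points, coloured by role) and the median of all genes tested (black squares) in each of 5 equal bins of transcript length, from shortest to longest, for both comparisons. In aging the members lie around the black line in the shorter bins, and in ALS several 19S genes lie well under it.

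In SOD1G93A spinal cord, 3 members fell and none rose. They were Psmc5, the ATPase that also had the highest FPKM of the members, Psmd12, a lid subunit, and Psmd5, a chaperone that holds the ATPases during assembly of the base. Psmc5 fell to 0.747 of its control level, Psmd5 to 0.790 and Psmd12 to 0.802. No subunit of the core particle was called. Of all 14386 genes tested by edgeR, 33.9% were called, 18.4% as higher and 15.5% as lower, against 0 of 35 members higher and 3 of 35 (8.57%) lower. With a log2 fold change beyond 1 as well, 9.7% of all genes and 0 members were called. At an unadjusted p under 0.05, 1 member was higher and 4 were lower, and the share of all genes at that threshold was not counted. DESeq2 called 0 higher and 3 lower, and limma on log2(FPKM + 1) called 1 higher, Psmb2, and 1 lower, Psmc5. Over all genes, DESeq2 called 2591 higher and 2328 lower of 14386, and limma 2402 higher and 1297 lower of 13259. The median size of the log2 fold change, whatever its sign, was 0.11 over the members and 0.29 over all genes tested.

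Psmc5 was 236, 227 and 240 CPM in the 3 control libraries and 157, 194 and 175 CPM in the 3 SOD1G93A libraries, so every SOD1G93A value was below every control value. Its log2 fold change was -0.42 ± 0.099 (SE), with a 95% confidence interval of -0.64 to -0.20 and an adjusted p of 0.0125. Psmd5 was 56.4, 54.1 and 53.9 CPM in controls and 40.8, 46.2 and 42.9 CPM in SOD1G93A libraries, again without overlap. It changed by -0.34 ± 0.086 on the log2 scale (adjusted p = 0.0164). Psmd12 was 108, 111 and 106 CPM in controls and 80.3, 96.3 and 83.9 CPM in SOD1G93A libraries, also without overlap. It changed by -0.32 ± 0.091 on the log2 scale (adjusted p = 0.0259). Among all genes tested, 24.7% likewise had every SOD1G93A value below every control value.

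These calls rested on few libraries. Without the SOD1G93A library d4443 none of the 3 was called, with adjusted p of 0.0572 for Psmc5, 0.0692 for Psmd5 and 0.105 for Psmd12. Without any one of d4438, d4441, d4444 or d4435, 1 was called. Without the SOD1G93A library d4437, 6 members were lower, with Psmc1, Psmc6 and Psmd1 added, and 1, Psmb2, was higher. The log2 fold changes themselves kept their sign in every such fit, between -0.50 and -0.34 for Psmc5, -0.38 and -0.29 for Psmd5, and -0.40 and -0.26 for Psmd12. With limma on log2(FPKM + 1) the change of Psmd5 was -0.12 (adjusted p = 0.349), less than in any of these fits. Library d4437, which had the highest Psmc5, Psmd5 and Psmd12 of the 3, also had the highest summed level of 8 neuronal markers, 6063 CPM against 3684 and 4236 CPM. In controls that sum was 9158 to 9681 CPM, and 7 of the 8 neuronal markers and 4 of 6 motor neuron markers were called lower in SOD1G93A cords. The 6 motor neuron markers summed to 249 to 281 CPM in controls and 136 to 151 CPM in SOD1G93A libraries. Of the 8 microglial markers 6 were higher and none lower (sum 334 to 405 CPM in controls, 1235 to 2188 CPM in SOD1G93A libraries), and of the 6 astrocyte markers 5 were higher and none lower (5239 to 5777 CPM, 10822 to 17296 CPM). The Schwann cell sum also did not overlap (213 to 241 CPM, 257 to 408 CPM), with 1 of 3 tested markers higher. Nor did the sum of 5 Hox genes of cord position (171 to 178 CPM, 111 to 164 CPM), of which 0 were called. The part of cord position in the subunit values was not tested. Oligodendrocyte and endothelial sums overlapped. None of these markers was at 0 throughout. Fewer cells of a type and less RNA per cell cannot be told apart in whole cords, and the part of cell composition in the subunit values was not tested.

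All 6 ATPases of the regulatory particle had negative log2 fold changes, from -0.04 in Psmc4 to -0.42 in Psmc5, with a median of -0.16. Psmc6 changed by -0.26 with an adjusted p of 0.0524, and both it and Psmc2 had no overlap between groups. The summed counts of all 6 ATPases were 0.0743% to 0.0770% of the library in controls and 0.0625% to 0.0713% in SOD1G93A libraries, without overlap. This sum includes Psmc5, which had the highest level and the largest fall of the 6. Among the 11 non-ATPases 7 log2 fold changes were negative, with a median of -0.09. In the core particle 9 of 14 were positive, with medians of 0.02 in the alpha ring and 0.01 in the beta ring, and the summed shares of both rings overlapped between groups.

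The groups did not overlap, with all SOD1G93A libraries lower, in 10 of the 35 members (28.6%): Psmb7, Psmc2, Psmc5, Psmc6, Psmd2, Psmd5, Psmd7, Psmd10, Psmd12 and Psmd14. This was found in 24.7% of all genes tested. They did not overlap with all SOD1G93A libraries higher in Psma4, Psmb2 and Psmd11 (8.57% of members), against 25.7% of all genes. Psmb2 was 50.3, 45.0 and 47.9 CPM in controls and 55.5, 54.1 and 56.8 CPM in SOD1G93A libraries (log2 fold change 0.22, adjusted p = 0.0747).

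The 3 catalytic subunits of the core were not called in ALS. Psmb5 was 57, 52.2 and 62.3 CPM in controls and 53.2, 55.5 and 53.4 CPM in SOD1G93A libraries, with overlapping groups (log2 fold change -0.08, interval -0.29 to 0.12). Psmb6 was 69.5, 62.6 and 68.8 CPM in controls and 70.7, 68.5 and 81.1 CPM in SOD1G93A libraries, with overlapping groups (0.13, interval -0.08 to 0.35). Psmb7 was 109, 109 and 107 CPM in controls and 91.9, 102 and 101 CPM in SOD1G93A libraries, all lower (-0.15, interval -0.33 to 0.04, adjusted p = 0.194). The largest log2 fold change of any tested member was in Psmc3ip, the recombination factor, at 1.42, 1.68 and 1.23 CPM in controls and 1.19, 2.01 and 2.87 CPM in SOD1G93A libraries. Its change of 0.48 on the log2 scale had an interval of -0.38 to 1.34 and an adjusted p of 0.361, and its groups overlapped.

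**Figure D5:**
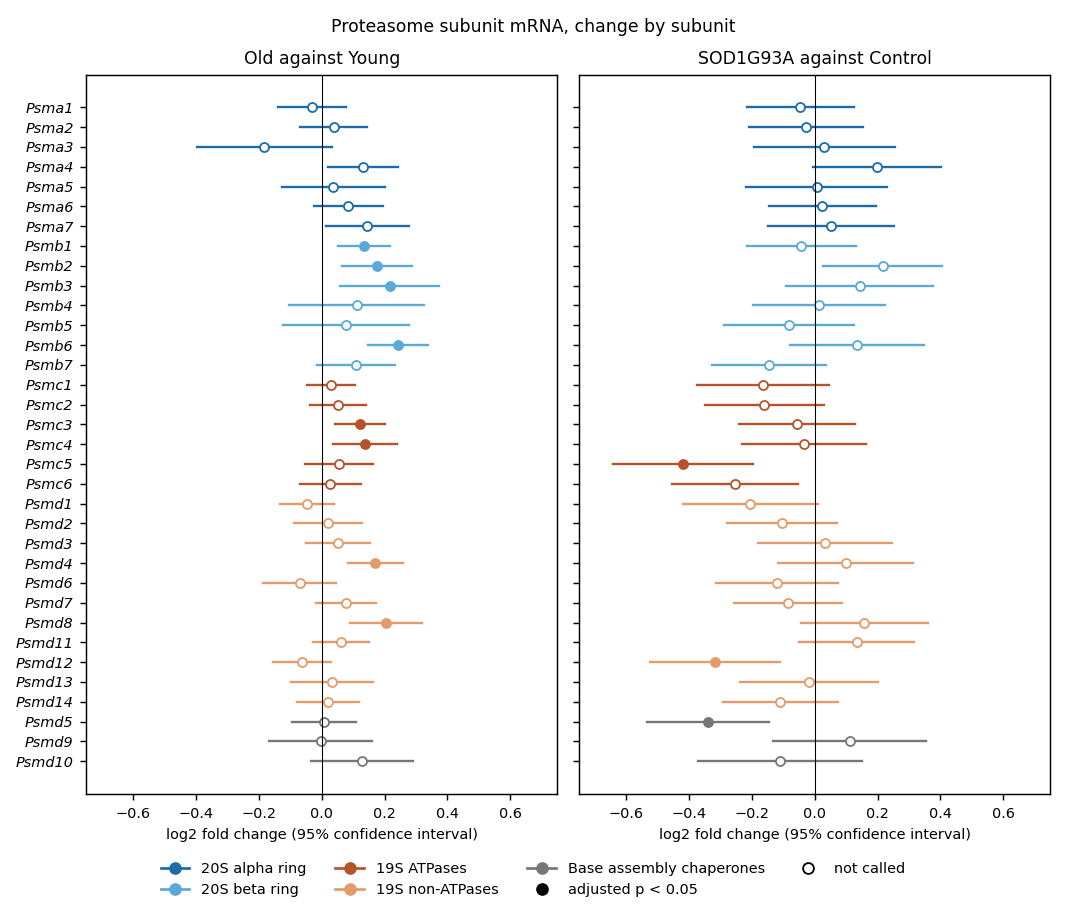
Log2 fold change with its 95% confidence interval of the 34 subunits and base chaperones tested in both comparisons, in order of role, with filled points at an adjusted p under 0.05. In aging the points of the beta ring lie to the right of 0, and in ALS the points of the 6 ATPases lie to the left of 0.

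Log2 fold changes over all genes varied with transcript length in ALS as they did in aging: the median gene of the shortest bin had 0.11 and that of the longest -0.12. The 23 members in the shortest bin had a median of -0.04. With the centred correction for length and GC content 4 members were lower, the same 3 and Psmc6, and none was higher.

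The comparisons were then set against each other by testing the difference of their log2 fold changes in a joint edgeR fit of the 22 libraries. The SOD1G93A change was lower than the aging change in 8 of 35 members and higher in none, where 14.2% of the 14502 genes tested were lower and 11.6% higher (25.8% in all). At an unadjusted p under 0.05, 12 were lower and 0 higher, and the share of all genes at that threshold was not counted. DESeq2 called 8 lower and 0 higher, beside 2106 lower and 1803 higher of all 14502 genes tested. Of the 8, 5 were ATPases: Psmc5 (difference -0.50, adjusted p = 9.97e-04), Psmc6 (-0.31, 0.0102), Psmc2 (-0.24, 0.0351), Psmc1 (-0.22, 0.0407) and Psmc3 (-0.21, 0.0452). The others were Psmd5 (-0.37, 0.00338), Psmd12 (-0.28, 0.0187) and Psmb1 (-0.21, 0.0421). The ATPase Psmc4 had a difference of -0.20 that was not called (adjusted p = 0.126), and its interval was -0.40 to -0.0042. Leaving out 1 control or SOD1G93A library gave 3 to 9 lower members, and Psmc5 and Psmd5 were called in all 6 such fits. With the centred correction for length and GC content all 8 were again called, and with RLE factors 7 were, without Psmc3 (adjusted p = 0.0533). Psmc3 was called in 1 of the 6 fits that left out 1 library. The experiments also differ in library kit, in the ages compared and in sex, which cannot be told apart from the difference.

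Around the subunits, 4 lists held 49 tested genes of the pathway. In old cords 12 of the 49 were higher and 2 lower, where 13.5% and 12.9% of all genes were called. In SOD1G93A cords 9 were higher and 8 lower, which is near the shares over all genes, 18.4% and 15.5%. The largest changes were in Psmb8 and Psmb9. With Psmb10 these are the inducible beta subunits, which replace the constitutive ones in the immunoproteasome. Psmb9 was low at the outset, with 5 to 12 counts in young and 11 to 16 in control libraries. Psmb8 rose by 1.36 ± 0.18 in aging (adjusted p = 3.52e-06) and by 2.55 ± 0.19 in ALS (1.24e-04) on the log2 scale, Psmb9 by 1.83 ± 0.25 (7.42e-06) and 2.11 ± 0.31 (0.00169), and Psmb10 by 0.38 ± 0.077 in aging (8.54e-04), with 0.29 ± 0.14 in ALS (0.144). Of the proteasome activators in the same list, Psme1 rose by 0.60 in aging (adjusted p = 6.76e-08) and by 0.97 in ALS (0.00208), and Psme2 by 0.39 (0.00372) and 0.49 (0.0440). The list held 7 genes, of which 6 were higher in aging and 4 in ALS. Of the 8 microglial markers given above, 7 were higher in aging and 6 in ALS, and their part in these changes was not tested.

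Of 15 tested assembly factors, inhibitors and proteasome-bound proteins, 1 was higher in aging, the inhibitor Psmf1 (0.17, adjusted p = 0.0238). None was lower, where 13.5% of all genes were called higher and 12.9% lower. In ALS 3 of the 15 were lower and 1 higher, which is near the shares over all genes, 15.5% lower and 18.4% higher. The lower ones were the ligase Ube3c (-0.58, adjusted p = 0.00465) and the deubiquitinases Uchl5 (-0.48, 0.00798) and Usp14 (-0.46, 0.0254). The small regulatory subunit Sem1 was higher in ALS (0.32, adjusted p = 0.0465). Paaf1 was not found under this symbol.

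Of 10 transcriptional regulators, 2 were higher and 1 lower in aging, where 13.5% and 12.9% of all genes were called. In ALS 3 were higher and 0 lower, where 18.4% and 15.5% of all genes were called. Nfe2l2, the activator of the antioxidant response, rose in aging (0.34, adjusted p = 6.01e-04) and in ALS (1.29, 0.00155). Keap1, its inhibitor, rose in aging (0.22, adjusted p = 0.00118), and the protease Ddi2, which activates NFE2L1, was lower in aging (-0.13, 0.0465). In ALS the NF-Y subunit Nfya (0.91, adjusted p = 0.0105) and the repressor Bach1 (0.39, 0.0166) were higher. Nfe2l1 itself, the main regulator of constitutive proteasome genes, had log2 fold changes of 0.03 in aging (adjusted p = 0.529) and -0.13 in ALS (0.242).

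Of 17 genes for ubiquitin, its activating enzymes and shuttle factors, Rps27a, which encodes ubiquitin fused to a ribosomal protein (0.25, adjusted p = 0.00195), and the autophagy receptor Sqstm1 (0.22, 5.61e-04) rose in aging, and the activating enzyme Uba6 was lower (-0.30, 0.0127). In ALS Rps27a rose (0.59, adjusted p = 0.00926), and 5 of the 17 were lower, where 18.4% of all genes were called higher and 15.5% lower. Of these, Ubqln4 (-0.38, adjusted p = 0.0159), the neuronal hydrolase Uchl1 (-0.43, 0.0263), Usp5 (-0.30, 0.0267) and Uba6 (-0.49, 0.0374) had the smallest adjusted p, and the other was the shuttle factor Ubqln2 (-0.37, 0.0459), named after its value was seen. The polyubiquitin gene Ubb had log2 fold changes of -0.0018 in aging and 0.00084 in ALS, and was not called in either.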

How the data were processed

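Whole spinal cord RNA of 22 mice was measured by RNA-seq. The authors aligned reads with STAR 2.5.3a to mm10 and summarized them with RSEM 1.3.0 on Ensembl 88. They deposited RSEM expected counts per gene, not normalized between libraries (already whole numbers), and log2 values, log2(FPKM + 1), from which FPKM was computed back. Column names give each library's group but no replicate number. The members, gene lists and tests were chosen with earlier results of these data known.

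Protein-coding status, positions and the longest transcript came from GENCODE M21 on GRCm38, and 76 of 21995 genes were not found in it. For each comparison, genes were kept by filterByExpr (minimum count 10, minimum total 15), scaled by TMM and tested with edgeR 4.0.16 (quasi-likelihood, Benjamini-Hochberg over all genes tested, R 4.3.3). A gene was called at an adjusted p under 0.05, without a fold threshold. CPM use TMM library sizes. The difference of the comparisons was a contrast of 4 groups in one fit. The procedure was tested on simulated data. There, a log2 fold change of 0.5 in either direction was recovered in 76% of genes for aging and 18.2% for ALS. For a log2 fold change of 1 the shares were 99% and 72.7%. Genes without any difference made up 4.89% of the calls for aging and 10% for ALS. These shares were not given separately for the members. A member not called in ALS may still differ by an amount inside its own confidence interval. For the tested subunits and base chaperones not called in ALS, the lowest end of these intervals was -0.46 (Psmc6). The highest end was 0.41 (Psmb2), so all lay within a log2 fold change of 0.5 in either direction. The interval of Psmc3ip was wider, from -0.38 to 1.34. Alternatives were DESeq2 1.42.0, RLE factors, other filters, the study's added threshold of a log2 fold change beyond 1, one fit of all libraries, limma 3.58.1 on log2(FPKM + 1) with a mean above 1, loess correction (span 0.3) for length and GC content, and each library left out. Named members are those called in either comparison, the catalytic subunits, those with the 3 smallest adjusted p or 3 largest changes, those with the 3 highest or lowest FPKM, and untested members. At most 5 called genes per pathway list are named by adjusted p. No pair of libraries of a group agreed within sampling noise. P-values measure the spread between these mice. MNTg SOD1G93A mice were not analysed here. Values of some genes of the pathway lists are not reported here.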

Additional observations from a re-analysis of the deposited data

Results flagged for a closer look

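In single libraries, 3 values stood far from the other 7 of their group by Dixon's test at the 95% level, which chance alone gives in about 1 in 20 groups, and 78 groups were tested. Psmd7, a lid subunit, was 90.5 CPM in the young library d149011, where the other young libraries ranged from 98.1 to 104 CPM. The summed ATPase counts were 0.0795% of the old library d149034, against 0.0871% to 0.0921% in the other old libraries. The summed non-ATPase counts were 0.108% in the same library, against 0.117% to 0.125%. Both sums are shares of raw totals and were not scaled by TMM factors. Library d149034 had a TMM factor of 0.920 and 15.1% of its counts in its 10 most abundant genes. The part of this in its low shares was not tested.

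The change in SOD1G93A cords was lower than the change in old cords for 8 members by the interaction term in edgeR's quasi-likelihood fit of all libraries. The differences on the log2 scale were -0.50 for Psmc5, -0.37 for Psmd5, -0.31 for Psmc6, -0.28 for Psmd12, -0.24 for Psmc2, -0.22 for Psmc1, and -0.21 for Psmb1 and Psmc3. Experiment and library kit coincide in this contrast.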

How the results depend on the processing

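Calls in old cords, 8 higher and 0 lower, were 5 and 0 without a filter on low counts and 4 and 0 with limma on log2(FPKM + 1), and 7 or 8 and 0 with DESeq2, RLE factors, 10 counts in every library or one fit of all libraries. The correction for length and GC content gave 0 higher and 5 lower, with a median over the members of -0.048, and in this form it also moved the median of all genes, to -0.03 in aging and -0.13 in ALS. Centred so that it does not, and fitted robustly as well (chosen after seeing the data), it gave 0 higher, 1 lower and a median of -0.0019. Under the uncentred correction Psmb2 (-0.045), Psmc3 (-0.050) and Psmc4 (-0.023) changed sign without being called, and Psmb6 in ALS went to -0.27 (adjusted p = 0.0223). In ALS, 3 members were lower in the main analysis, 23 under the uncentred correction (median -0.33), 7 in one fit of all libraries (median -0.064) and 1 with limma, which also called 1 higher (median 0.015). The centred correction gave a median of -0.12. Leaving out 1 library gave 5 to 8 higher members in aging (median 0.045 to 0.077), 0 to 6 lower and 0 to 1 higher in ALS (median -0.068 to -0.018), and 3 to 9 lower in the difference of the comparisons. With the added threshold of a log2 fold change beyond 1, 0 members were called in either comparison, and the pathway lists had 2 higher and 0 lower in aging and 3 higher and 0 lower in ALS, against 12 and 2 and 9 and 8. With 3 mice a group, adjusted p near 0.05 turned on single libraries. Causes were not tested. No paired analysis was possible because the table's columns carry no replicate numbers.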
